A study of Triticum aestivum with 16 samples.

Results

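The transcripts described here gave a clear array signal in some wheat lines and a signal near the floor in others, called on and off below, with no line in between. They are the probe sets for which every one of 8 lines had either both arrays under 3.5 or both arrays over 7 on the deposited log2 scale, with at least 1 line of each kind. Of 61115 probe sets, 8 met this rule, which is 0.0131%. The members were chosen from these very values, so the off and on levels below are a description and carry no test. None of the 8 has a gene in the platform annotation, which names a gene for 1273 probe sets, so they are given by probe set name and no function is stated.

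The study measured flag leaves of recombinant inbred lines of bread wheat (Triticum aestivum) from a cross of Seri M82 with Babax. The lines, SB15, SB33, SB53, SB80, SB138, SB146, SB165 and SB189, all grew irrigated in the field in 2007, and leaves were taken 6 to 8 days after flowering. Each line gave 2 arrays, 1 from each of 2 field replicates, which makes 16 arrays of total RNA. The labels give neither which parent a line resembles at any locus nor a carbohydrate class, and the parents themselves are not among the samples, so no state can be assigned to Seri M82 or Babax here.

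A recombinant inbred line is selfed over many generations until it carries, at most loci, the copy of 1 parent or of the other. A transcript that differs sharply between the parents can therefore appear in some lines of the cross and be missing from others. Bread wheat is hexaploid and carries related gene copies in its A, B and D subgenomes, so a probe set may read 1 copy while other copies go on being expressed. A probe set is a group of short probes matched to 1 transcript sequence, and its value reports RNA that pairs with those probes. A low level of the RNA and an RNA whose sequence differs at the probes cannot be told apart from these values.

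The deposited values stop at a floor of 2.25, and the 23 negative control probe sets averaged 2.26. Off values therefore give upper bounds, and each fold is written as at least that large. Each fold compares the mean log2 value of the off lines with that of the on lines, so a single on line can lie closer. Of 34 annotated flag leaf probe sets, 12 averaged over 7 and 16 were under 3.5 on all arrays, with a median of 2.85. The list is mostly probe sets annotated to rbcl, the large subunit of Rubisco, whose means ran from 2.25 to 16.57, and its probe set of PRK, a Calvin cycle enzyme, averaged 14.95. Of 17 annotated grain storage protein probe sets, 16 were under 3.5 on all arrays, and the other, an avenin-like one (ALP), averaged 11.56. The 4 probe sets of raftin, an anther protein, were all under 3.5 on every array, while the profilin probe sets, also on the anther list, averaged 13.37 and 14.31.

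The 8 members fell into 7 groups by which lines were off. In 4 members a single line was off, in 3 members 2 lines were off, and in 1 member 3 lines were off. SB53 and SB138 were each off at 3 members, SB15 and SB80 at 2, and SB33, SB146 and SB189 at 1. SB165 was on at all 8. SB33 and SB189 had the same state at all 8 members, whereas 3 pairs (SB15 with SB138, SB53 with SB80, and SB80 with SB138) differed at 5.

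**Figure D1:**
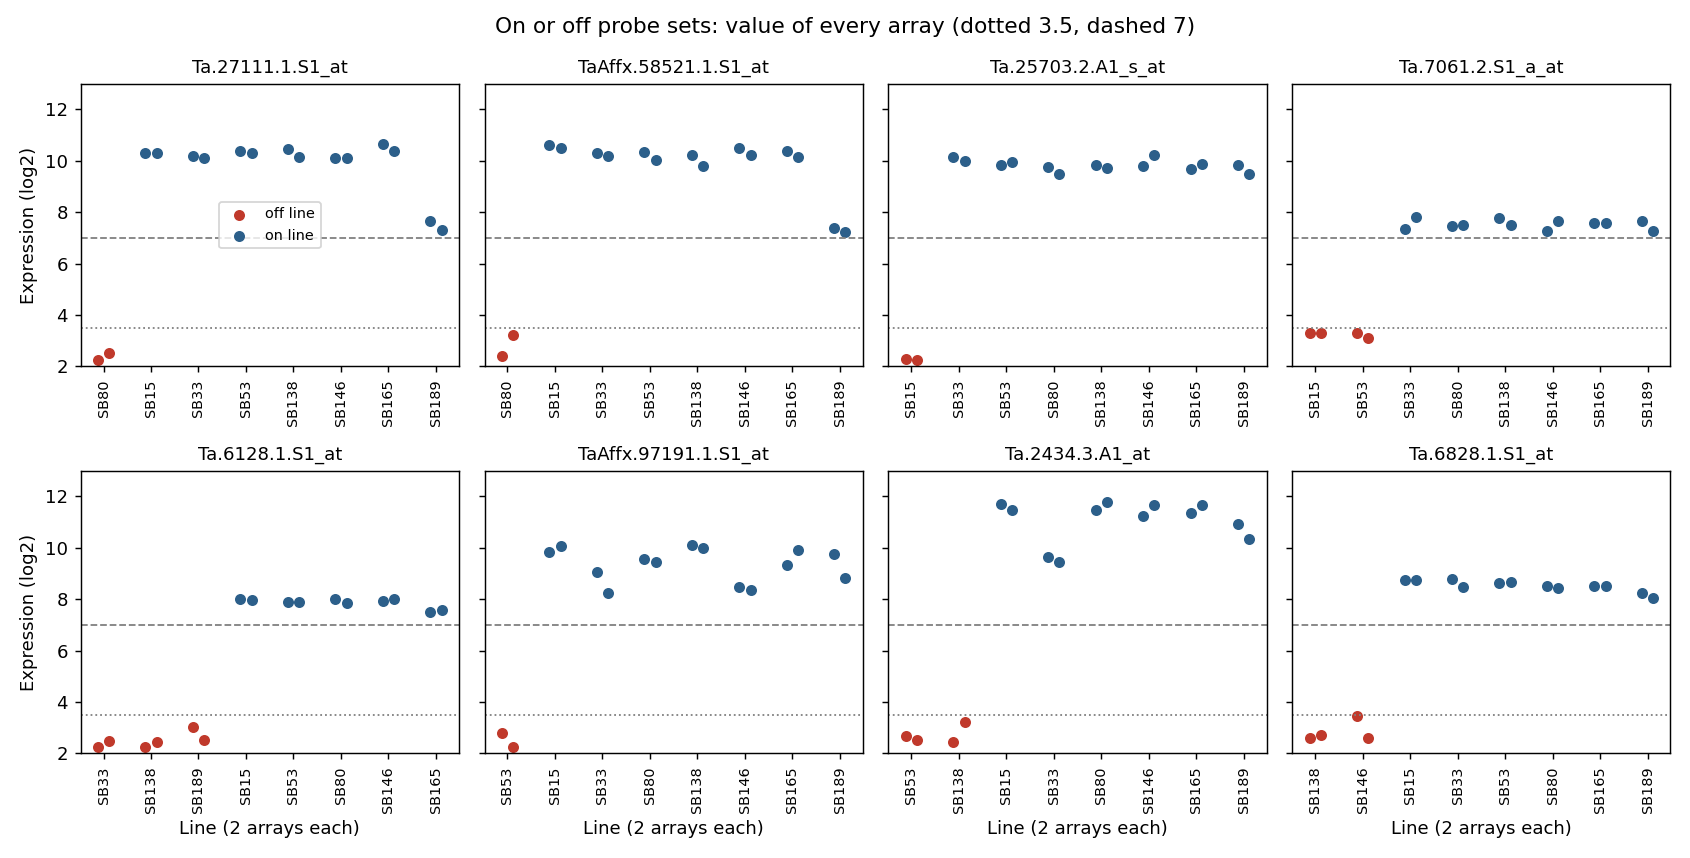
Each panel plots 1 on or off probe set, with the log2 expression of each of the 16 arrays on the y axis, the off lines (red) on the left of the x axis and the on lines (blue) on the right, and the 2 arrays of a line side by side. The dotted line is at 3.5 and the dashed line at 7, and by the rule no array of a member lies between them. SB189 stands below the other on lines in the first 2 panels.

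Ta.27111.1.S1_at was off in SB80 alone. Its 2 SB80 arrays read 2.25 and 2.51, against a lowest value of 7.31, a median of 10.24 and a highest of 10.67 over the 14 arrays of the 7 on lines. The SB80 mean of 2.38 ± 0.19 (SD, n = 2) was at least 182-fold below the mean of the on lines. TaAffx.58521.1.S1_at was off in SB80 as well, at 2.42 and 3.21, against 7.25, 10.24 and 10.62 as the lowest, median and highest on arrays. Its SB80 mean was at least 132-fold below the mean of the on lines. SB80 also had the lowest level of the poly-A spike controls, RNAs added during labelling, at 8.82 ± 0.044 (log2, SD, n = 2), against 9.29 to 10.12 in the other lines. The part of the spike level in these off values was not tested. The number of probe sets over 7 was 13461 and 13433 on the SB80 arrays, near the low end. Among the arrays of the other lines, only replicate 2 of SB53 was lower, at 13428. The highest was replicate 2 of SB146, at 13925.

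Ta.25703.2.A1_s_at was off in SB15 alone, at 2.27 on both arrays. The on arrays had a lowest value of 9.48, a median of 9.82 and a highest of 10.21. The distance of 7.21 log2 units between the lowest on array and the highest off array was the widest among the members. The level in SB15 was at least 188-fold below the mean of the on lines. The name ending _s_at marks a probe set whose probes are shared by more than 1 transcript.

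TaAffx.97191.1.S1_at was off in SB53 alone, at 2.80 and 2.25. The on arrays ran from 8.25 to 10.09 with a median of 9.50. The SB53 level was at least 114-fold below the mean of the on lines. The standard deviation between the 7 on line means was 0.62, below that of TaAffx.58521.1.S1_at (1.13), Ta.27111.1.S1_at (1.07) and Ta.2434.3.A1_at (0.83). Replicate differences in the on lines reached 0.90, the largest among the members.

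Ta.2434.3.A1_at was off in SB53 and SB138. It read 2.67 and 2.53 in SB53 and 2.44 and 3.22 in SB138, against 9.45 to 11.76 on the 12 arrays of the on lines, with a median of 11.41. The mean of the 2 off lines was at least 325-fold below the mean of the on lines, the largest such bound among the members.

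Ta.6828.1.S1_at was off in SB138 and SB146. The SB138 arrays read 2.60 and 2.72 and the SB146 arrays 3.47 and 2.60, against 8.04 to 8.77 in the on lines, with a median of 8.50. Replicate 1 of SB146 lay 0.030 log2 units inside the off threshold, the smallest margin of any member. The mean of the off lines was at least 51.2-fold below the mean of the on lines.

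Ta.7061.2.S1_a_at was off in SB15 and SB53. It read 3.30 on both SB15 arrays and 3.30 and 3.09 in SB53, against 7.26 to 7.82 in the on lines, with a median of 7.53. The distance of 3.95 log2 units between its lowest on array and its highest off array was the narrowest among the members, and its bound was 19.4-fold. The ending _a_at marks probes that match alternative transcripts of 1 gene.

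Ta.6128.1.S1_at was off in 3 lines. The arrays read 2.25 and 2.49 in SB33, 2.25 and 2.44 in SB138, and 3.02 and 2.52 in SB189, against 7.51 to 8.02 in the 5 on lines, with a median of 7.90. The mean of the off lines was at least 41.2-fold below the mean of the on lines. The on arrays were tight, with a median replicate difference of 0.057.

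The on lines of some members differed in level among each other. The rule read the same arrays, so these levels too are given as a description, with no test. Ta.27111.1.S1_at averaged 7.49 ± 0.25 (SD, n = 2) in SB189, against 10.12 to 10.53 in the 6 other on lines. TaAffx.58521.1.S1_at averaged 7.32 ± 0.096 in SB189, against 10.02 to 10.57. SB189 minus the mean of these 6 lines came to -2.80 and -2.96 log2 units, a signal of 14.3% and 12.9% of theirs on the linear scale. In both probe sets the SB189 arrays did not overlap with those of any other line. The spike level of SB189, 9.29 ± 0.32, was the next lowest after SB80, and its part was not tested.

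In Ta.2434.3.A1_at the lowest on line was SB33 at 9.55 ± 0.14, followed by SB189 at 10.63 ± 0.42, and the 4 others lay between 11.44 and 11.62. TaAffx.97191.1.S1_at had on means from 8.41 in SB146 to 10.04 in SB138. In the other 4 members the on means spanned 0.18 to 0.61 log2 units.

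The level of SB189 was then read in every probe set that was off in SB80 and on in the 6 other lines, with no condition on SB189. This set was chosen after the levels of SB189 in the members had been seen, so it is given as values with no test. There were 14 such probe sets, the 2 members and 12 that are no members. In all 14, both SB189 arrays lay below every array of the 6 other lines, and in none was SB189 off. The share of all probe sets with SB189 below the 6 lines in this way was not counted. The 12 are no members because SB189 was in neither state, so its place between off and on was fixed by this split. In the 12, SB80 read 2.25 to 3.24, SB189 read 3.52 to 6.53, and the 6 other lines read 7.04 to 9.66. SB189 minus the mean of the 6 lines came to between -4.26 and -2.01 log2 units, with a median of -2.87. Of the 12, Ta.20895.1.S1_at and Ta.20895.1.S1_x_at belong to 1 transcript cluster.

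No other pair of lines gave such a set. With 1 line off, 1 line left free and the 6 others on, the free line lay between the thresholds in 12 probe sets for SB80 with SB189, in 1 for SB53 with SB138, in 1 for SB53 with SB146 and in 0 for each of the remaining 53 ordered pairs. Without SB189 the rule would have taken 21 probe sets, of which 14 were off in SB80 alone.

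**Figure D2:**
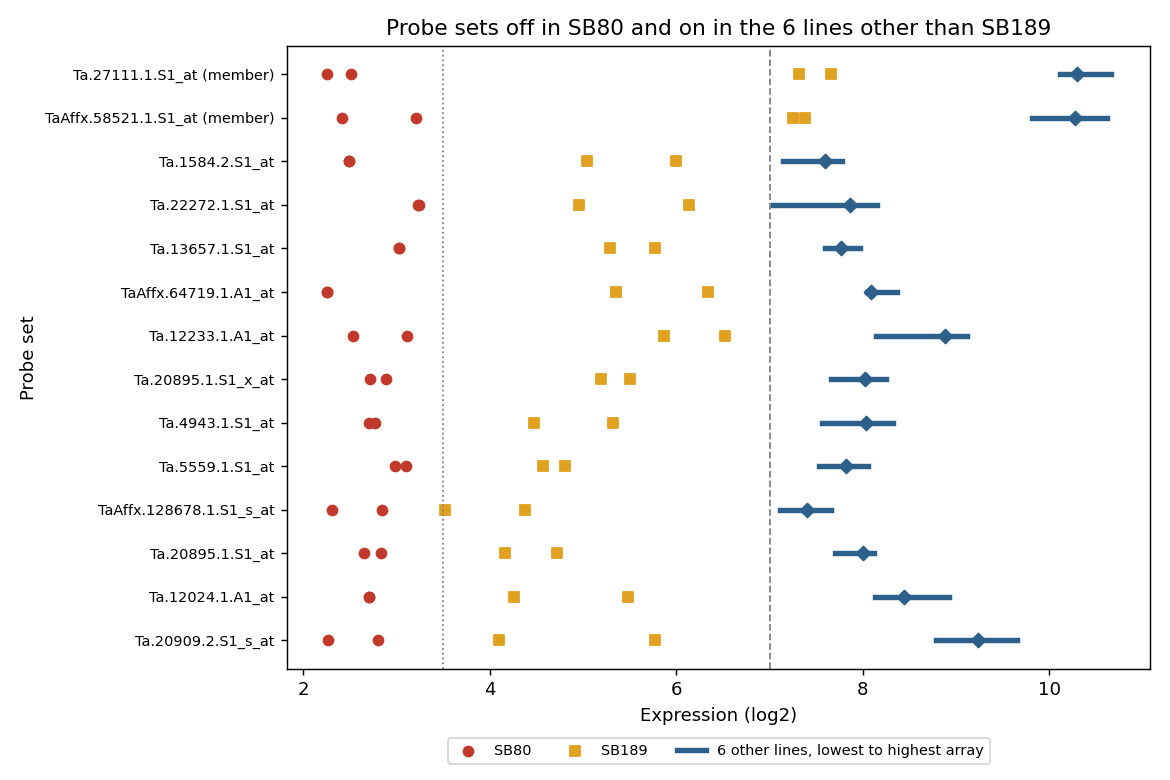
Log2 expression is plotted on the x axis for the 14 probe sets, listed down the y axis, that were off in SB80 and on in the 6 lines other than SB189. Red points are the 2 SB80 arrays, yellow squares the 2 SB189 arrays, and blue bars run from the lowest to the highest array of the 6 other lines with a diamond at their median. Every pair of SB189 squares lies left of the blue bar, between -4.26 and -2.01 log2 units from the mean of the 6 lines, and right of the SB80 points. In the probe sets that are no members, SB189 is neither off nor on by that choice.

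The rule did not use the other probe sets of the members' transcript clusters, which share the first part of their name and read other stretches or copies of related sequence. Of the 8 clusters, 4 had such partners, 9 in all, and the other 4 members had none. None of the 9 partners had a line effect over the 8 lines (limma F, adjusted p under 0.05), where 3.5% of all probe sets did, and 1 of the 9 had an unadjusted p under 0.05, as did 12.5% of all probe sets. In 6 partners all 16 arrays were over 7, so they were on also in the lines where the member was off. Another 2 partners were under 3.5 on all arrays. Of all 61115 probe sets, 11979 were over 7 and 35437 under 3.5 on all 16 arrays.

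In the cluster of Ta.2434.3.A1_at, the partner Ta.2434.2.S1_at read 11.35 to 11.41 on the arrays of SB53 and SB138, the lines without the member's signal, and 11.00 to 11.49 in the on lines. The groups overlapped, and the off lines minus the on lines came to 0.11 (95% interval -0.018 to 0.23). It was also the partner with the unadjusted p under 0.05, at 0.0243 (limma adjusted p = 0.263). Its cluster partners Ta.2434.1.A1_at and Ta.2434.1.A1_x_at differed by 0.10 (95% interval -0.046 to 0.25) and 0.077 (95% interval -0.042 to 0.20). The same difference of the member was -8.34, with an upper bound as its off level.

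In the cluster of Ta.25703.2.A1_s_at, the partner Ta.25703.1.A1_at read 9.17 and 9.22 in SB15, against 8.89 to 9.50 in the on lines. The difference was 0.083 (95% interval -0.12 to 0.28), so SB15 lay inside the range of the other lines.

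The cluster of Ta.6828.1.S1_at had 3 partners. Ta.6828.1.S1_a_at read 9.24 to 9.46 in SB138 and SB146, against 9.29 to 9.68 in the on lines, a difference of -0.10 (95% interval -0.22 to 0.012). Ta.6828.2.A1_x_at differed by -0.018 (95% interval -0.16 to 0.12). Ta.6828.3.S1_a_at lay between the thresholds on all arrays, from 4.78 to 6.07, and its interval was the widest, -0.72 to 0.28.

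In the cluster of Ta.7061.2.S1_a_at both partners were dim in every line. Ta.7061.3.S1_at sat at the floor of 2.25 on all 16 arrays. Ta.7061.3.S1_a_at read 3.0 to 3.27 in SB15 and SB53, against 3.08 to 3.46 in the on lines, a difference of -0.15 (95% interval -0.29 to -0.0020). It had no line effect (limma adjusted p = 0.872) and the groups overlapped.

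**Figure D3:**
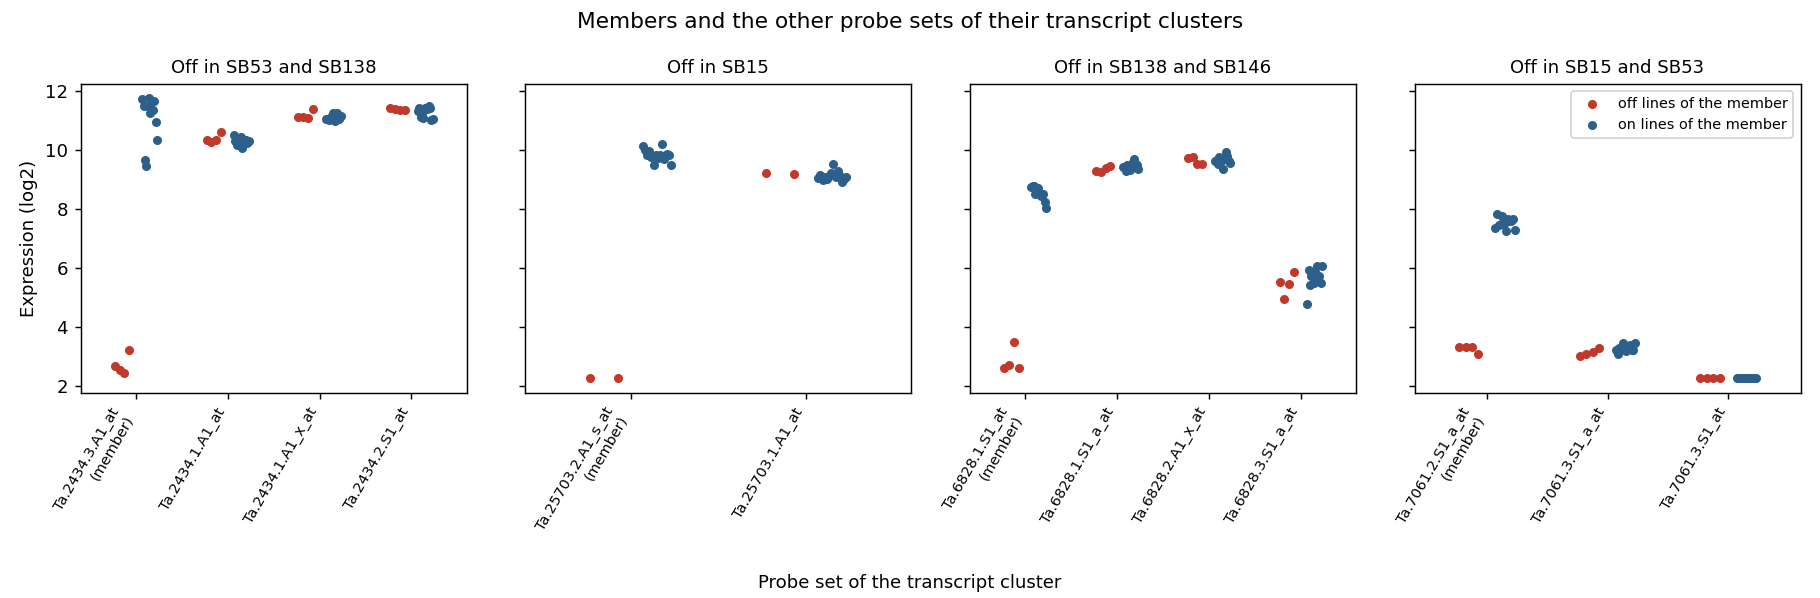
Each panel is the transcript cluster of 1 member, with its probe sets on the x axis, the member first, and the log2 expression of each array on the y axis. Red points on the left are the arrays of the lines where the member is off and blue points on the right those of the other lines. Red and blue are apart in the members by the rule, and overlap in the 9 partners. Of these, 6 are over 7 on all arrays and 2 under 3.5 on all arrays.

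Other probe sets followed some members over the 8 line means. For each member the probe sets with the highest Pearson correlation were taken among 593 with a line mean over 7 and a range of at least 2. The correlations come from the same 16 arrays and are a description over 8 line means. For Ta.27111.1.S1_at the highest was Ta.3590.2.S1_s_at (r = 0.998), which averaged 3.52 in SB80, 8.53 in SB189 and 11.07 to 11.18 in the other lines. It is no member because SB80 is not under 3.5 on both arrays. For TaAffx.58521.1.S1_at the highest was TaAffx.64719.1.A1_at (r = 0.999), at 2.25 in SB80, 5.85 in SB189 and 8.06 to 8.26 in the other lines. The 2 SB80 members correlated with each other at 0.996.

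Ta.2434.3.A1_at was followed by Ta.13171.1.S1_at (r = 0.989), which averaged 2.25 in SB53, 2.37 in SB138 and 6.77 to 7.38 in the other lines. Ta.6128.1.S1_at was followed by Ta.25693.1.A1_at (r = 0.992), at 4.45 to 4.86 in SB33, SB138 and SB189 and 7.02 to 7.57 in the other lines. For the remaining members the highest correlations were 0.929 (Ta.25703.2.A1_s_at with Ta.689.1.A1_at), 0.955 (Ta.7061.2.S1_a_at with Ta.12503.1.S1_x_at), 0.952 (TaAffx.97191.1.S1_at with Ta.1450.3.S1_at) and 0.924 (Ta.6828.1.S1_at with TaAffx.14574.1.S1_at). Among these 4, Ta.1450.3.S1_at averaged 7.68 in SB53, the off line of its member, and 11.57 to 12.02 in the other lines.

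The rule requires the 2 arrays of a line to share a state, so the members hold no line with its arrays on opposite sides. Over all probe sets and lines, the 2 arrays of a line lay on opposite sides, 1 under 3.5 and 1 over 7, in 10 cases from 9 probe sets. SB33 held 5 of these cases, SB146 and SB189 held 2 each and SB165 held 1. Within the on lines of the members, the median difference between replicates was 0.19 log2 units, against 0.12 for the probe sets over 7 on all arrays.

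A further 68 probe sets had at least 1 off line and 1 on line but were no members, because at least 1 line was in neither state. SB189 was in neither state at 42 of the 68, the other lines at 8 (SB80) to 24 (SB15). In 22 of the 68 a single line was in neither state, and this line was SB189 in 13. Of these 13, 12 are the probe sets described above with SB80 off and SB189 left free, which also count among the 42. The share of all probe sets with SB189 in neither state was not counted. SB80 was off at 44 of the 68. The 2 annotated genes among them, LOC606308 and LOC543287, had SB165 as their single on line.

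**Figure D4:**
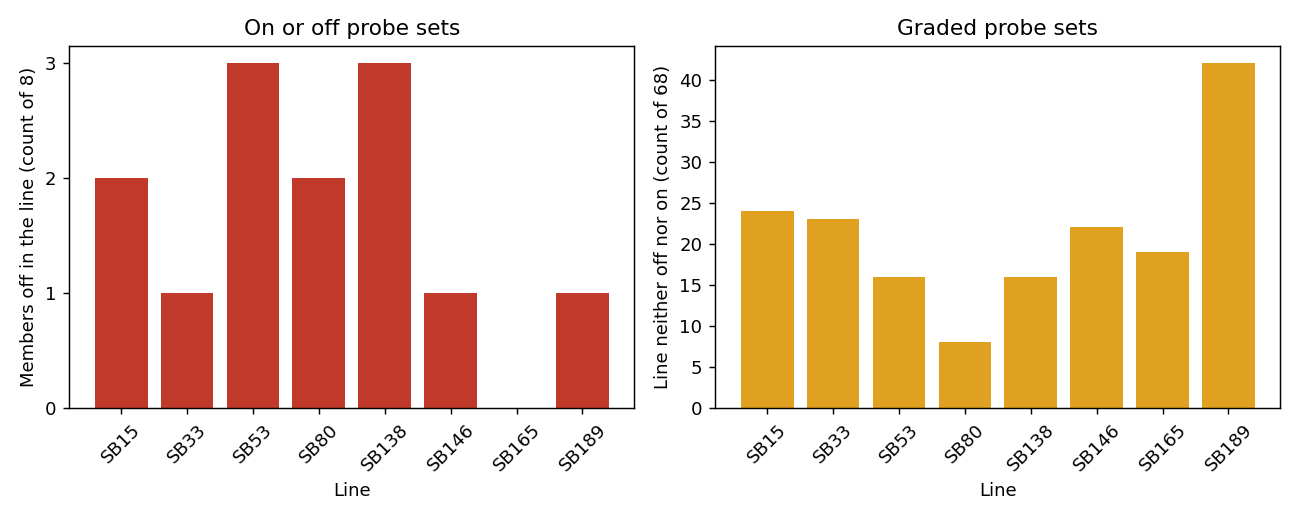
The left bars give, for each line, the number of the 8 members that were off in it, and the right bars the number of the 68 graded probe sets in which the line was neither off nor on. SB53 and SB138 have the tallest left bars at 3 and SB165 has none, while SB189 has the tallest right bar at 42.

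Just inside the thresholds, the members nearest to leaving the set after Ta.6828.1.S1_at were Ta.7061.2.S1_a_at, whose SB15 arrays at 3.30 were 0.20 below the off threshold, and TaAffx.58521.1.S1_at, whose lower SB189 array at 7.25 was 0.25 above the on threshold. Just outside were Ta.4381.2.S1_a_at, with SB165 at 2.73 and 3.76, Ta.30560.1.S1_at, with SB189 at 6.74 and 7.30, and TaAffx.15261.1.S1_at, with SB33 at 6.70 and 6.90. With thresholds of 3 and 8 the rule took 2 probe sets, Ta.25703.2.A1_s_at and TaAffx.97191.1.S1_at, and with 4 and 6 it took 38 in 22 off groups. Among these 38, 7 were off in 1 line and 7 were off in 7 lines, 5 of them with SB165 as the single on line, so the absence of members on in few lines depends on the thresholds.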

How the data were processed

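Biotin-labelled total RNA was measured on 16 arrays, 2 per line. The deposited log2 values were made by the authors with RMA and GCRMA, per the submitters' processing notes, which give no versions and no role for each. These methods correct background, normalize between arrays and summarise probes, and their floor compresses low values. Detection calls were not used here, and the 2 arrays per line limit the precision. Control probe sets (175) were left out.

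States were read from the deposited values. Tests used limma 3.58.1 in R 4.3.3 with line as the factor, a moderated F over the 8 lines, and Benjamini-Hochberg adjustment over all 61115 probe sets. The code of the moderated F was checked on simulated data with a common spread and no floor, unlike these values. The replicates are field replicates, and p-values measure the spread between them. The members, lists and tests were chosen with earlier results of these data known. A moderated F among the on lines of the members was also planned and run, but it reads the arrays that chose the members, so its p-values are not given.

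Text names every member, partners with their members, the 3 probe sets nearest each side of the thresholds, and the probe sets most like each member, the last chosen after the values were seen. Probe and transcript sequences were not used here.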

Additional observations from a re-analysis of the deposited data

Results flagged for a closer look

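Control probe sets that enter no comparison carried signal. Apart from the spikes of the poly-A mix and the negative controls, 41 of 116 control probe sets were above the highest negative control value, 2.56, on all 16 arrays. The 18S rRNA control among them ran from 5.11 to 12.09 over the arrays.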

How the results depend on the processing

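The number of members depends on the thresholds: 2 with 3 and 8, 38 with 4 and 6, and 1 (Ta.25703.2.A1_s_at) with 2.5 and 7. Without line SB189 it was 21, and all 8 members were among them. Quantile normalization and equal array medians kept the same 8 members, with distances between on and off arrays of 3.90 to 7.25. The number of members ran from 8 to 11 without 1 array, where a line resting on 1 array can only add members. Without any 1 of the other 7 lines it ran from 6 (without SB80) to 10. Without probe sets ending in _x_at, _s_at or _a_at it was 6. Replicates in opposite states numbered 2 with thresholds of 3 and 8 and 33 with 4 and 6, and graded probe sets 31 and 140. The partner count of 0 became 1 without either array of SB80, in both cases Ta.2434.2.S1_at (lowest adjusted p 0.0119), so its range without 1 array was 0 to 1. With the field replicate as a replicate block, 0 partners passed, as without it. Deviations of same-numbered arrays correlated between lines at -0.18 to 0.33, over 0.1 in 12 of 28 pairs of lines. The mean was positive for 7 of 8 lines. Same-numbered arrays were not treated as paired in the main fit, only in the fit with the block. Partners at the floor cannot show a lower level.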
